A study of Mus musculus with 40 samples.

Results

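The step from the mature egg to the end of the 1-cell stage was followed in normal mice, with 4 control RNA-seq libraries out of the 40 samples of the study. Of these, 2 libraries (MII) were of ovulated oocytes halted at metaphase of the second meiotic division, and 2 (1C) were of late 1-cell embryos. All 8234 genes with a mean of at least 1 FPKM over the 4 libraries were compared, out of 24056 with values. FPKM (mapped fragments scaled to transcript length and to the library's mapped total) thus states a level relative to the rest of the library.

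The control females were *Tdp43* flox/flox mice without Cre, 7-8 weeks old and of mixed C57BL/6J and ICR background, and the labels give their genotype as WT. Females received PMSG before HCG, and MII oocytes were taken 13 h after HCG. The embryos, taken 30 h after HCG, came from matings with fertile ICR males, so they carry a paternal genome that the oocytes lack. Each library pooled 20 oocytes or embryos with the zona pellucida removed. Some values are also given for control full-grown oocytes, taken about 48 h after PMSG alone, and early 2-cell embryos, taken 36 h after HCG. The same step was read in 4 libraries of the *Tdp43* oKO (oocyte knockout), *Tdp43* flox/flox;*Zp3-Cre* females of the same age, in which the *Zp3* promoter drives Cre only in growing oocytes and the father supplies an intact *Tdp43* allele. Nothing states that the pools of a group were drawn from different females, so p-values measure the spread between pools, which may be technical.

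The full-grown oocyte stops transcription and lives on stored mRNA until the embryonic genome starts to work. Fertilization ends the meiotic arrest, replaces the protamines of sperm with histones, forms both pronuclei and starts the first round of DNA replication. During this time stored messages are destroyed, or silenced and reused by shortening and lengthening of their poly(A) tails, and the first weak transcription (minor zygotic genome activation, ZGA) begins. The libraries were primed on poly(A), so a change in the amount of an mRNA and a change in its tail cannot be told apart.

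The replicates correlated at r = 0.984 (MII) and r = 0.979 (1C) on log2(FPKM + 1) over the 8234 genes. The mean distance between stages was 91.9, against 34.8 between the MII libraries and 36.7 between the 1C libraries on that scale. The summed FPKM was 370278 and 372066 in MII and 306711 and 303284 in 1C. Reads per library are unknown from FPKM, so no counting error can be given. The oocyte genes *Oosp1*, *Dppa3* and *Omt2b* were among the 10 highest genes of both stages.

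Markers of cells outside the zona were examined as well. Of 28 cumulus and granulosa markers, 13 to 18 were listed at 0 in each of the 4 libraries, and their summed level ranged from 12.2 to 18.9 FPKM. Of 26 sperm and male germ cell markers, 11 to 15 were listed at 0, with sums of 31.7 to 36.6 FPKM. Of 30 blood and immune markers, 24 and 26 were at 0 in MII, where the sums were 5.62 and 4.24 FPKM. In 1C they summed to 273 FPKM in replicate 1, with none at 0, and to 34.9 FPKM in replicate 2, with 6 at 0. Oviduct and uterine markers summed to 46.8 and 43.9 FPKM in MII and to 55.4 and 47.4 FPKM in 1C, where 3 members in replicate 1 and 9 in replicate 2 were at 0. The blood and immune signal thus lay mainly in 1 library, and its part in the results was not tested. Without that library the counts given next become 1334 higher and 871 lower.

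Messages were both gained and lost between MII oocytes and 1C embryos, in 2102 of the 8234 genes. A gene was called when limma gave a Benjamini-Hochberg adjusted p of at most 0.05 over the 8234 genes and a change of at least 2-fold on log2(FPKM + 1). In 1C, 1186 genes (14.4%) were called higher and 916 (11.1%) lower, and the median log2 fold change over all genes was 0.01. The 4 libraries did not overlap between stages for 2100 of the 2102 called genes, which the call itself nearly requires. Uncalled genes such as *Btg4* and *Gapdh* did not overlap either. The share over all genes is not given here, so the count is no separate support. A change of 4-fold or more was reached by 258 of the higher and 174 of the lower genes, and one of 8-fold or more by 39 and 29. The called shares depended on level. Of 523 genes with a mean of 100 FPKM or more, 14.7% were higher and 20.5% lower, whereas of 3610 genes between 1 and 5 FPKM, 12.7% were higher and 6.37% lower. In 629 genes the MII mean was below 1 FPKM, so that they entered the test only through 1C, and 285 of them are among the genes called higher. In the same way 114 genes called lower had a 1C mean below 1 FPKM. A pseudocount of 5, which damps changes of low genes, left 531 genes higher and 475 lower, and 27 of the 156 named genes called lost their calls with it.

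**Figure D1:**
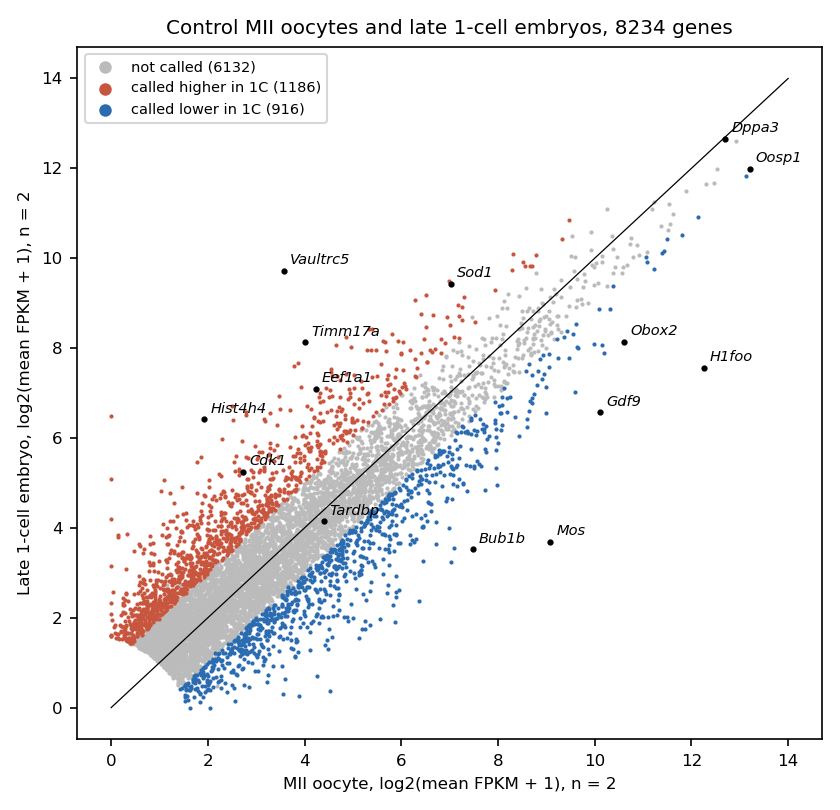
Mean level of 8234 genes in control MII oocytes (x axis) and late 1-cell embryos (y axis), both as log2(FPKM + 1) of the mean of 2 libraries; the line marks equal levels. Red and blue points are the 1186 genes called higher and the 916 called lower in 1C, and the labelled genes are described in the text.

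Oocyte and meiotic messages were among the largest losses. *Mos* (chromosome 4, 3797804 to 3799252 in mm9), the kinase that holds the egg in metaphase through the MAP kinase cascade, was 671 and 408 FPKM in MII and 7.63 and 16.3 FPKM in 1C. It fell by 5.42 ± 0.29 (SE) on the log2 scale (limma, adjusted p = 3.4e-11). *H1foo*, the oocyte-specific linker histone, was 5739 and 4000 FPKM in MII and 126 and 251 FPKM in 1C (log2 fold change -4.74 ± 0.40, adjusted p = 5.6e-08). Both genes were far apart between stages in every library, and *H1foo* went from one of the most abundant oocyte messages to a moderate one. *Bub1b*, which encodes the spindle checkpoint kinase BUBR1, was 178 and 176 FPKM in MII and 9.55 and 11.4 FPKM in 1C (log2 fold change -3.96 ± 0.20, adjusted p = 2.1e-11). *Gdf9*, the growth factor by which the oocyte signals to the follicle, was 1254 and 953 FPKM in MII and 85.2 and 105 FPKM in 1C (log2 fold change -3.52 ± 0.20, adjusted p = 7.0e-11). *Lbr*, a receptor of the inner nuclear membrane for lamin B, was 130 and 128 FPKM in MII and 8.39 and 8.60 FPKM in 1C (log2 fold change -3.77 ± 0.20, adjusted p = 2.8e-11).

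The other 10 of the 15 largest decreases span unrelated roles, with log2 fold changes from -4.16 to -3.50. *Pnpla3*, a lipid droplet hydrolase, was 25.5 and 18.7 FPKM in MII and 0.0519 and 0.541 FPKM in 1C. *Saraf*, an inhibitor of store-operated calcium entry, was 84.5 and 78.3 FPKM in MII and 4.18 and 4.25 FPKM in 1C. The remaining genes were *Leprot*, *Il1rap*, *Tada2a* (an adaptor of histone acetyltransferase complexes), *Taldo1* (an enzyme of the pentose phosphate pathway), *Pdia6* (a protein disulfide isomerase), *Efna1*, *Tmem59* and *Cep44*. All 15 stayed called under each alternative processing and each left-out library that was run.

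**Figure D2:**
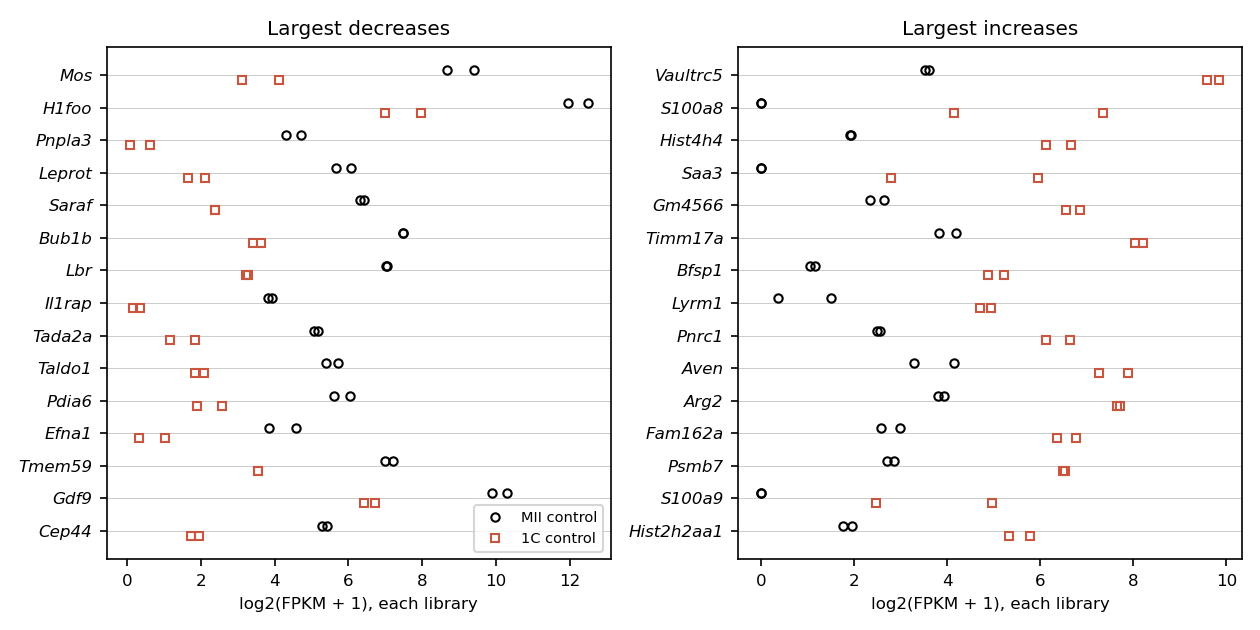
FPKM of each control library, as log2(FPKM + 1), for the 15 largest decreases (left) and the 15 largest increases (right) among called genes with a mean of at least 5 FPKM and no overlap between stages. Circles are the 2 MII libraries and squares the 2 late 1-cell libraries; for *S100a8*, *S100a9* and *Saa3* both circles lie at 0 and the squares are far apart.

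Among oocyte growth and zona genes more members were lower than higher. Of 56 members tested, 19 were called lower (33.9%, against 11.1% of all genes) and 4 higher, and the median log2 fold change was -0.72. With quantile normalization 10 were lower and 8 higher, with a median of -0.38. This list, like all lists here, was drawn up with earlier results of these data known. The genes of the zona pellucida, the glycoprotein coat of the egg, were all called lower and are given here outside the naming rule. *Zp1* was 47.0 and 30.7 FPKM in MII and 7.98 and 8.84 FPKM in 1C, *Zp2* went from 151 and 113 to 38.0 and 40.6 FPKM, and *Zp3* from 157 and 87.1 to 18.6 and 30.3 FPKM. *Bmp15*, the partner of *Gdf9* in follicle signaling, was 1094 and 990 FPKM in MII and 1068 and 830 FPKM in 1C and was not called (adjusted p = 0.60). *Lhx8*, a transcription factor of early oocytes, went against the list, at 4.49 and 6.02 FPKM in MII and 40.0 and 29.8 FPKM in 1C (log2 fold change 2.52 ± 0.24, adjusted p = 8.4e-08).

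The subcortical maternal complex is a protein assembly under the egg membrane that early cleavage needs. Its genes and the related *Nlrp* genes had 5 of 19 members lower (26.3%) and 2 higher (10.5%), against 11.1% and 14.4% of all genes. *Khdc3* fell from 86.2 and 55.8 FPKM to 10.0 and 16.5 FPKM (log2 fold change -2.34 ± 0.26, adjusted p = 5.4e-07). *Nlrp5*, also called *Mater*, was 330 and 277 FPKM in MII and 94.6 and 143 FPKM in 1C, and *Nlrp2* was 43.8 and 36.9 against 16.3 and 15.7 FPKM. *Khdc1c* rose from 20.6 and 17.4 FPKM to 107 and 113 FPKM (log2 fold change 2.48 ± 0.17, adjusted p = 1.3e-09).

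Genes of meiotic arrest and of the cyclin B kinase moved in both directions. Of 58 tested, 11 were lower and 5 higher, or 9 higher without 1C replicate 1. Beside *Mos* and *Bub1b*, *Aurkc*, the Aurora kinase of germ cells, was 324 and 362 FPKM in MII and 65.1 and 63.9 FPKM in 1C (log2 fold change -2.39 ± 0.14, adjusted p = 1.4e-10). *Pttg1*, the securin that guards sister chromatid cohesion, was 7875 and 10092 FPKM in MII and 3509 and 3811 FPKM in 1C (log2 fold change -1.29 ± 0.12, adjusted p = 7.2e-08). *Cdk1*, the catalytic partner of cyclin B, rose instead, from 5.61 and 5.71 FPKM to 32.9 and 41.4 FPKM (log2 fold change 2.51 ± 0.24, adjusted p = 6.9e-08). It had been 71.1 and 63.2 FPKM in full-grown oocytes (FGO). Of 30 mitotic cyclins and interphase regulators, 2 (6.67%) were higher (*Ccnh*, *Rbl1*) and 2 lower (*Cdk7*, *Fbxw7*). Of 44 actin, spindle and polar body genes 9 (20.5%) were lower and 3 (6.82%) higher. Among the lower ones were *Myl6* and the tubulins *Tuba1a*, *Tuba1b* and *Tuba1c*. With a pseudocount of 5 no mitotic cyclin or interphase regulator was called, and *Fbxw7* fell short of 2-fold without MII replicate 2 (log2 fold change -0.98) or 1C replicate 1 (-0.93). The 3 tubulin genes are close copies whose reads the counting could have divided.

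Egg activation and sperm-egg fusion genes had 6 of 25 members higher and 4 lower. *Astl*, the protease ovastacin that cuts ZP2 after fertilization to block further sperm, was 72.3 and 49.9 FPKM in MII and 5.11 and 5.14 FPKM in 1C (log2 fold change -3.32 ± 0.21, adjusted p = 3.8e-10). *Itpr2*, a calcium release channel, was 46.4 and 45.5 FPKM in MII and 14.5 and 18.4 FPKM in 1C. *Slc39a6*, a zinc importer, was 10.7 and 8.63 FPKM in MII and 39.2 and 35.0 FPKM in 1C, and *Mfsd2a* was 6.95 and 5.89 against 26.2 and 31.8 FPKM.

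The largest increases were not a single class of gene. *Vaultrc5*, which encodes the small RNA of the vault ribonucleoprotein, was 11.2 and 10.5 FPKM in MII and 772 and 918 FPKM in 1C (log2 fold change 6.15 ± 0.38, adjusted p = 6.5e-10). Whether libraries primed on poly(A) measure this small RNA was not tested, and FPKM divides by its short length. *Timm17a*, a channel subunit that carries proteins into mitochondria, was 13.2 and 17.1 FPKM in MII and 262 and 296 FPKM in 1C (log2 fold change 4.13 ± 0.18, adjusted p = 6.1e-12). *Psmb7*, a catalytic subunit of the proteasome, was 5.48 and 6.25 FPKM in MII and 88.3 and 91.3 FPKM in 1C (log2 fold change 3.73 ± 0.17, adjusted p = 6.1e-12). In each of these the MII values lay close together and far below the 1C values.

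*Arg2*, the mitochondrial arginase, was 14.2 and 12.9 FPKM in MII and 208 and 200 FPKM in 1C (log2 fold change 3.82 ± 0.27, adjusted p = 1.5e-09). *Pnrc1*, a nuclear receptor coactivator, was 4.84 and 4.58 FPKM in MII and 98.9 and 68.2 FPKM in 1C (log2 fold change 3.86 ± 0.19, adjusted p = 1.7e-11). *Aven*, an apoptosis inhibitor, was 16.8 and 8.79 against 152 and 237 FPKM, and *Fam162a* 6.95 and 4.92 against 80.995 and 108 FPKM. *Bfsp1*, *Lyrm1*, *Gm4566*, *Hist4h4* and *Hist2h2aa1* complete the increases seen at like levels in both 1C libraries. The other 3 of the 15, *S100a8*, *S100a9* and *Saa3*, are neutrophil and acute-phase genes of the blood and immune list. They were listed at 0 in both MII libraries and uneven between the 1C libraries, at 161 and 16.7 FPKM, 30.3 and 4.53 FPKM, and 60.4 and 5.95 FPKM. In a limma fit with the replicate numbers crossed between the stages as a block, chosen after seeing the data, their calls were lost (adjusted p = 0.15, 0.14 and 0.19). That fit rested on the 4 control libraries alone. The calls were kept in the other fits on these 4 libraries, without a block and with same-numbered libraries as the block. Why the crossed fit lost them was not tested. In 1C replicate 2 all 3 genes still lay above both MII libraries.

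Several of these genes were already high before maturation, and their values in neighbouring stages are set side by side here; those stages are compared through the same MII and 1C libraries. *Timm17a* was 763 and 976 FPKM in control FGO and 165 and 145 FPKM in early 2-cell embryos (E2C). *Psmb7* was 377 and 325 FPKM in FGO and 9.13 and 7.52 FPKM in E2C, and *Arg2* 376 and 370 FPKM in FGO and 18.9 and 18.7 FPKM in E2C. *Vaultrc5* had another course, at 2.38 FPKM and listed at 0 in FGO, and at 22.7 and 45.6 FPKM in E2C. *Mos* was 331 and 256 FPKM in FGO and 1.10 and 1.25 FPKM in E2C, and *Bub1b* 96.9 and 88.9 FPKM and then 0.965 and 1.48 FPKM, so that for these the MII level was the highest of the 4 stages.

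Many histone genes were higher in 1C. Of 70 histone, histone chaperone and sperm chromatin exchange genes, 26 were higher (37.1%, against 14.4% of all genes) and 8 lower, with a median log2 fold change of 0.39. The increase lay in the replication-dependent genes of the Hist1 to Hist4 clusters, where 24 of 43 were higher and 4 lower with a median of 1.06. Of the other 27 members 2 were higher, *Chaf1a* and *Chaf1b*, which encode subunits of the chaperone that loads histones behind the replication fork, and 4 were lower. *Hist4h4*, a gene for histone H4, was 2.75 and 2.81 FPKM in MII and 68.5 and 100 FPKM in 1C (log2 fold change 4.47 ± 0.45, adjusted p = 3.2e-07). *Hist2h2aa1* was 2.39 and 2.86 against 39.0 and 54.1 FPKM. Its near-identical copy *Hist2h2aa2* had almost the same values, and reads of the copies may have been divided between them. Histone mRNAs of this class usually lack a poly(A) tail, on which these libraries were primed. With a pseudocount of 5, 11 histone list members were higher and 4 lower, and without 1C replicate 1 the counts were 32 and 5.

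Genes for protein synthesis and energy metabolism shifted in both directions, and many were higher in 1C. Cytoplasmic ribosomal protein genes had 23 of 86 members higher (26.7%) and 13 lower (15.1%). *Rps6* was 5.42 and 5.06 FPKM in MII and 36.6 and 38.2 FPKM in 1C (log2 fold change 2.62 ± 0.19, adjusted p = 2.3e-09), and *Rpl22l1* was 7.98 and 5.84 against 62.8 and 48.4 FPKM. *Rps2* went the other way, from 35.6 and 35.6 FPKM to 1.72 and 2.96 FPKM (log2 fold change -3.48 ± 0.21, adjusted p = 1.4e-10). Reads of ribosomal protein genes can be shared with processed pseudogenes, so single members are uncertain. Of 73 mitochondrial ribosomal protein genes 23 (31.5%) were higher and 6 (8.22%) lower, with a median log2 fold change of 0.48. *Mrpl33* was 3.77 and 4.09 FPKM in MII and 63.5 and 60.5 FPKM in 1C (log2 fold change 3.68 ± 0.19, adjusted p = 2.5e-11). A pseudocount of 5 left 15 cytoplasmic and 14 mitochondrial ribosomal protein genes higher and 11 and 2 lower.

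Translation initiation and elongation factors had 15 of 56 members higher (26.8%) and 10 lower (17.9%), against 14.4% and 11.1% of all genes. *Eef1a1*, which delivers aminoacyl-tRNA to the ribosome, was 18.03 and 17.6 FPKM in MII and 130 and 143 FPKM in 1C (log2 fold change 2.87 ± 0.13, adjusted p = 6.1e-12), and *Eif1ax* was 44.1 and 42.7 against 237 and 262 FPKM. Respiratory chain and ATP synthase genes had 24 of 86 higher (27.9%) and 17 lower (19.8%). *Atp5j2*, an ATP synthase subunit, was 25.1 and 22.9 FPKM in MII and 251 and 288 FPKM in 1C (log2 fold change 3.43 ± 0.22, adjusted p = 5.1e-10), while *Uqcr11*, of complex III, was 82.4 and 90.5 FPKM and then 15.7 and 15.1 FPKM (log2 fold change -2.41 ± 0.15, adjusted p = 3.7e-10). *Cox19* was listed at 0 in both MII libraries and was 2.75 and 5.34 FPKM in 1C. Proteasome subunits were split evenly, with 9 of 40 higher and 8 lower. Of 20 metallothionein and redox genes 4 were higher and 1 lower: *Sod1*, the cytosolic superoxide dismutase, rose from 132 and 126 FPKM to 657 and 726 FPKM (log2 fold change 2.41 ± 0.11, adjusted p = 1.2e-11), and *Mt1* fell from 21.2 and 10.6 to 2.25 and 5.15 FPKM. Higher counts with a pseudocount of 5 were 7 for translation factors and 14 for respiratory chain genes, and the call of *Cox19* was lost.

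Among RNA polymerase II subunits more members were lower than higher. Other lists of the transcription machinery were called lower about as often as all genes (11.1%). RNA polymerase II subunits had 5 of 11 tested members lower (45.5%) and 1 higher, with a median log2 fold change of -0.76. *Polr2c* was 492 and 344 FPKM in MII and 91.3 and 125 FPKM in 1C (log2 fold change -1.94 ± 0.23, adjusted p = 1.3e-06), and *Polr2j* was 774 and 847 against 218 and 295 FPKM. *Polr2k*, a small subunit shared by all 3 RNA polymerases, was 46.7 and 47.6 FPKM in MII and 231 and 169 FPKM in 1C (log2 fold change 2.04 ± 0.20, adjusted p = 9.6e-08). *Polr2a*, the catalytic subunit, was below the filter at 0.610 and 0.560 FPKM in MII and 0.371 and 0.304 FPKM in 1C. Of 62 general transcription factor and Mediator genes 8 (12.9%) were lower, among them *Med11* at 61.0 and 55.9 against 3.70 and 5.26 FPKM, and 2 (3.23%) higher.

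Of 33 elongation and pausing factors 3 (9.09%) were higher and 4 (12.1%) lower. *Supt4a*, of the elongation factor DSIF, was 11.3 and 9.28 FPKM in MII and 82.5 and 114 FPKM in 1C (log2 fold change 3.13 ± 0.19, adjusted p = 2.6e-10). The cyclins of P-TEFb, the kinase that releases paused polymerase, were not called: *Ccnt1* was 4.11 and 2.43 against 1.89 and 2.66 FPKM, and *Ccnt2* 16.6 and 15.5 against 10.1 and 13.5 FPKM. *Cdk9* was under 1 FPKM in all 4 libraries. *Nelfa* was not called either, at 14.3 and 11.3 FPKM in MII and 7.98 and 10.3 FPKM in 1C. *Tardbp* itself, which encodes the RNA- and DNA-binding protein TDP-43, was 19.7 and 20.3 FPKM in MII and 17.5 and 16.1 FPKM in 1C (log2 fold change -0.24 ± 0.16, adjusted p = 0.22).

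Few genes of the 2-cell burst were measurable. Of 56 genes of the 2-cell burst in the table, 11 passed the filter, and 7 of these were higher in 1C and none lower, with 1C means from 2.13 to 11.5 FPKM (*Gm21304* and *Cml2*). Passing the filter favoured genes that were high in 1C. *Gm5039* was 0.150 and 0.226 FPKM in MII and 4.25 and 4.59 FPKM in 1C (log2 fold change 2.19 ± 0.27, adjusted p = 1.7e-06). *Gm21304*, *Gm6763* and *Gm4340*, which belong to multicopy families, differed between the 1C libraries, at 0.874 and 3.39, 0.874 and 3.54, and 0.643 and 3.83 FPKM, and lost their calls without 1C replicate 2, the first and the second also without MII replicate 1. With a pseudocount of 5 none of the 11 was called, and with quantile normalization 2 were. *Dux* and *Zfp352*, early activators and markers of the 2-cell state, stayed under 1 FPKM in all 4 libraries. *Dux* was 0.00583 FPKM and listed at 0 in MII and 0.112 and 0.382 FPKM in 1C, and *Zfp352* was 0.0282 and 0.0530 FPKM in MII and 0.120 and 0.416 FPKM in 1C. In E2C *Zfp352* was 49.6 and 42.1 FPKM and *Gm5039* 224 and 239 FPKM.

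The study's minor ZGA list names 64 genes. They were picked on embryo libraries of another study for a low MII level and a rise in 1-cell or early 2-cell embryos. Of these, 16 passed the filter, 7 of them higher (43.8%, against 14.4% of all genes) and 2 lower. With a low MII level, passing the filter favoured genes high in 1C, so higher calls were favoured in advance. With quantile normalization 4 were higher and 2 lower, and with a pseudocount of 5 the counts were 2 and 1. *Tmsb4x*, which encodes an actin-binding peptide, was 0.615 and 0.170 FPKM in MII and 15.3 and 5.13 FPKM in 1C (log2 fold change 2.86 ± 0.53, adjusted p = 3.0e-04). The higher *Tmsb4x* value was in 1C replicate 1, the library with most of the blood and immune marker signal. The part of that signal in the *Tmsb4x* level was not tested. *1110008F13Rik* was 13.5 and 10.3 against 52.4 and 56.9 FPKM. Of 1105 major ZGA genes with values, 292 were tested. There 40 (13.7%) were higher and 25 (8.56%) lower, shares near those of all genes, and with a pseudocount of 5 the counts were 9 and 12. *Spink2*, one of these, was 1.46 and 1.43 FPKM in MII and 17.1 and 28.2 FPKM in 1C (log2 fold change 3.23 ± 0.27, adjusted p = 1.4e-08). *Dppa4*, an activator of *Dux*, was 1.44 and 1.70 against 4.52 and 5.12 FPKM and was called higher, and its partner *Dppa2* was 26.4 and 19.3 against 38.8 and 40.8 FPKM, below 2-fold (log2 fold change 0.79 ± 0.18, adjusted p = 9.5e-04).

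The 3 *Obox* homeobox genes tested were all called lower. *Obox2* was 1439 and 1662 FPKM in MII and 324 and 240 FPKM in 1C (log2 fold change -2.47 ± 0.26, adjusted p = 2.4e-07), while *Obox1* and *Obox5* were 2754 and 2748 against 1207 and 1078 FPKM and 2855 and 2931 against 1420 and 1318 FPKM. *Obox1* and *Obox5* were no longer called with quantile normalization. Of 23 zygotic transcription factors and lineage regulators 4 (17.4%, against 11.1% of all genes) were lower, and *Dppa4* was the 1 higher. Among the lower ones was *Sall4*, at 88.5 and 83.5 against 14.6 and 15.7 FPKM. Of 15 genes of DNA methylation and imprint protection none was higher and 3 were lower. *Trim28*, the corepressor that guards imprints, was 23.6 and 19.1 FPKM in MII and 2.53 and 3.59 FPKM in 1C (log2 fold change -2.47 ± 0.21, adjusted p = 1.4e-08). *Dnmt1*, the maintenance methyltransferase, was 83.5 and 55.7 against 23.7 and 31.4 FPKM, and *Tet3*, the dioxygenase that oxidizes the methylcytosine of the paternal genome, 49.5 and 36.2 against 19.6 and 19.5 FPKM. The call of *Tet3* was lost without MII replicate 1 (log2 fold change -0.85) and with a pseudocount of 5.

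RNA turnover and storage genes were called lower about as often as all genes (11.1%). Of 55 deadenylation, uridylation and decay genes 8 (14.5%) were lower and 3 (5.45%) higher, with 5 lower under median-ratio scaling. *Upf1*, the helicase of nonsense-mediated decay, was 27.96 and 28.9 FPKM in MII and 2.51 and 3.61 FPKM in 1C (log2 fold change -2.87 ± 0.23, adjusted p = 8.5e-09). *Btg4*, the adaptor of the deadenylase that clears maternal mRNA, remained among the highest genes, at 4771 and 5289 FPKM in MII and 3225 and 3241 FPKM in 1C, and was not called (log2 fold change -0.64 ± 0.20, adjusted p = 9.9e-03). Of 37 mRNA storage and masking genes 4 (10.8%) were higher and 4 lower. *Lsm14b* was 133 and 131 FPKM in MII and 23.4 and 24.7 FPKM in 1C (log2 fold change -2.41 ± 0.22, adjusted p = 4.1e-08), and *Zar1l* was 22.7 and 22.1 against 90.1 and 105 FPKM.

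The remaining lists are given by their counts, to be read beside 14.4% higher and 11.1% lower over all genes. Of 53 DNA replication genes 6 were higher, among them *Gins4* and *Rfc3*, and 5 lower, among them *Prim2*, or 8 lower without 1C replicate 1. Of 45 histone modifiers 3 were higher (*Kdm2b*, *Suv39h1*, *Suz12*) and 1 lower (*Kdm6b*). *Suz12* fell short of 2-fold without MII replicate 1 (log2 fold change 0.94) or 1C replicate 1 (0.85), and *Suv39h1* without 1C replicate 2 (0.82). The spliceosome list had 5 higher and 10 lower of 82, ribosome assembly 6 and 2 of 64, chaperones 8 and 7 of 57, importins and nuclear transport 1 and 4 of 40, retrotransposon control 2 and 3 of 17, stress and p53 targets 3 and 2 of 11, and imprinted genes 0 and 2 of 7. Neither of 2 cumulus markers tested nor any of 6 sperm markers was called. Of 4 blood and immune markers tested 3 were higher, those described above, and *Ccl2* was lower, a call lost without MII replicate 1 (log2 fold change -0.98). Of 7 oviduct and uterine markers 3 were higher (*Dcpp1*, *Dcpp2*, *Ovgp1*) and 3 lower, among them *Cdh1*, which the oocyte itself expresses, at 24.6 and 24.6 against 3.48 and 2.86 FPKM. *Ovgp1*, the secreted oviduct glycoprotein, was listed at 0 and at 0.0392 FPKM in MII and was 5.39 and 0.361 FPKM in 1C, and lost its call without 1C replicate 1.

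**Figure D3:**
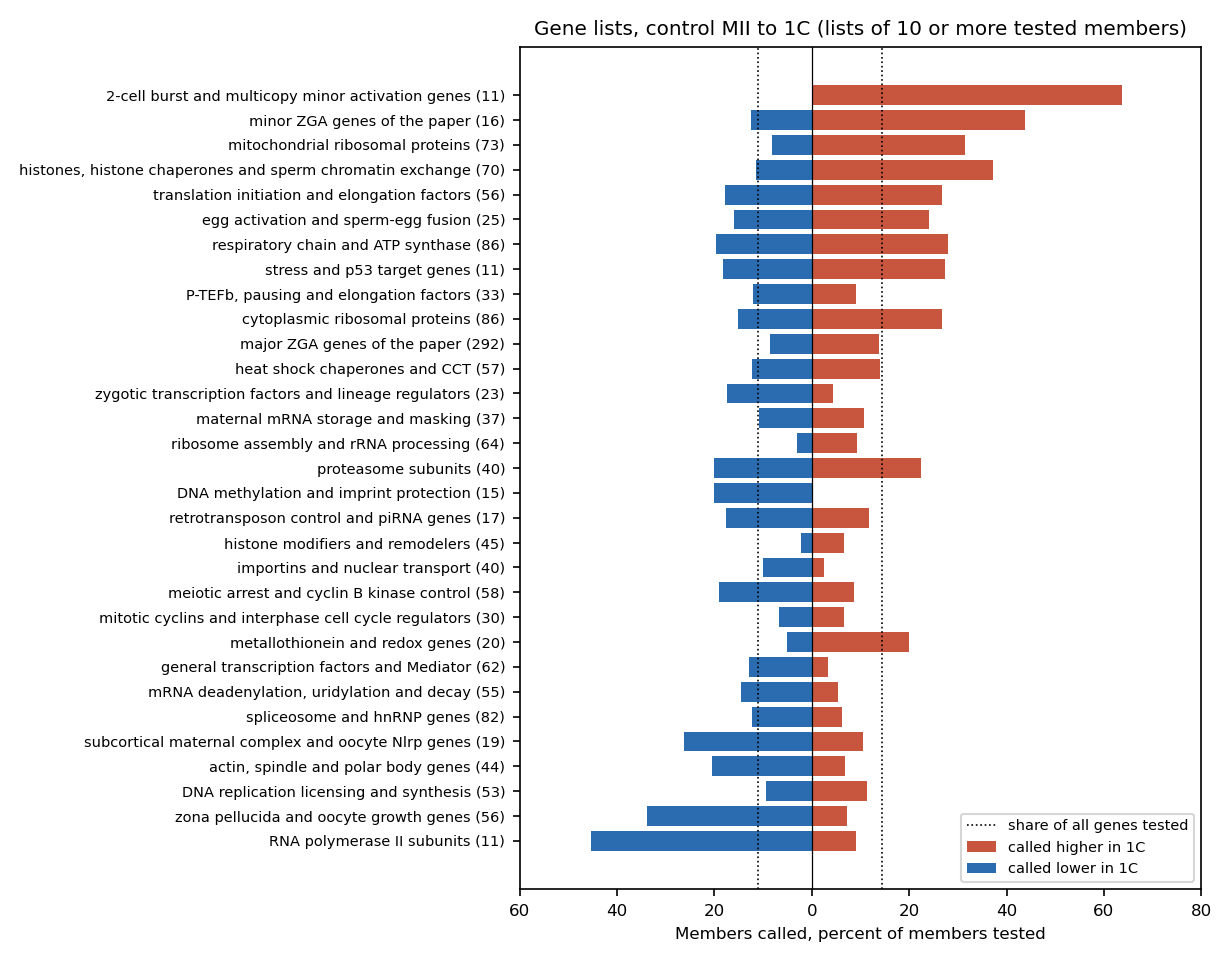
Percent of tested members called higher (red, to the right) and lower (blue, to the left) in late 1-cell embryos, for each gene list with 10 or more tested members, ordered by median log2 fold change; the number tested follows each name. Dotted lines mark the shares over all 8234 genes, 14.4% and 11.1%.

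The 3′ ends of the messages differed between genes that fell and genes that rose. Cytoplasmic polyadenylation in vertebrate oocytes is directed by a U-rich element, the cytoplasmic polyadenylation element, read by CPEB proteins close to the AAUAAA signal. Its common DNA form TTTTAT was searched on the transcript strand, with the signal AATAAA, in the last 100 bases of the annotated 3′ UTR (in the whole of it when shorter, with at least 50 bases). The longest GENCODE M1 protein-coding transcript was used, on NCBIM37, the assembly of mm9, and 7461 genes had such a window (84.3% of those called higher and 92.5% of those called lower). The annotated end need not be the end used in oocytes. Of the 15 largest decreases 14 had a window and 6 of these held TTTTAT. Of the 15 largest increases 12 had one and none held it. A short stretch of each window, around the motif, is printed 5′ to 3′ with TTTTAT and AATAAA in capitals, first for decreases with TTTTAT:
*Bub1b* (chr2:118467297-118467326, plus strand): tgtaTTTTATAATAAAatagtttttgttac
*Gdf9* (chr11:53251364-53251393, plus strand): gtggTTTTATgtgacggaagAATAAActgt
*H1foo* (chr6:115900183-115900212, plus strand): aagcTTTTATtgtctaataagctgtcacaa
*Taldo1* (chr7:148588809-148588838, plus strand): ataggattctgaTTTTATgtgaaattttgt
Next, *Mos* among the decreases and *Timm17a* and *Psmb7* among the increases, where the stretch shown holds AATAAA and the search of the whole window found no TTTTAT:
*Mos* (chr4:3797808-3797837, minus strand): atatttttaggaAATAAAgttaccacgaac
*Timm17a* (chr1:137198128-137198157, minus strand): agttattcagacAATAAAaggcttctggga
*Psmb7* (chr2:38443559-38443588, minus strand): ttaaAATAAATAAATAAAaagacaaaaaac

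Over all genes with a window, 16.9% held TTTTAT. The share was 25.0% (212 of 847) in genes called lower, 17.3% (974 of 5614) in genes not called and 7.40% (74 of 1000) in genes called higher. The median log2 fold change was -0.29 in genes with the hexamer and 0.05 in genes without it. The related TTTTAAT, which can run into AATAAA, was in 9.80% of the lower, 6.38% of the uncalled and 2.70% of the higher genes (6.27% of all). AATAAA was in 74.4%, 68.5% and 57.0% (67.6% of all). ATTAAA, the second common signal, which TTTTAT ran into in 62 genes, was in 21.7%, 22.6% and 20.2% (22.2% of all). The Pumilio site TGTANATA was in 4.72%, 5.52% and 4.40% (5.28% of all), and the AU-rich TATTTAT in 5.31%, 4.79% and 2.1% (4.49% of all).

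The windows of genes called higher were also less rich in A and T, at 61.6% against 65.4% in genes called lower and 65.4% in genes not called. The genes were also split into 4 bins by A and T content, and the order held in each. In the bin poorest in A and T, 26.1% of 92 genes with TTTTAT were lower and 8.70% higher, against 10.1% and 20.5% of 1965 genes without it. In the richest bin 14.3% of 516 genes with it were lower and 4.85% higher, against 11.8% and 8.58% of 1084 genes without it. Along the window the share of lower genes with TTTTAT was highest 41 to 60 bases from the end, at 8.69% of 840 genes, against 1.62% of 987 genes called higher and 4.35% of 5581 not called.

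**Figure D4:**
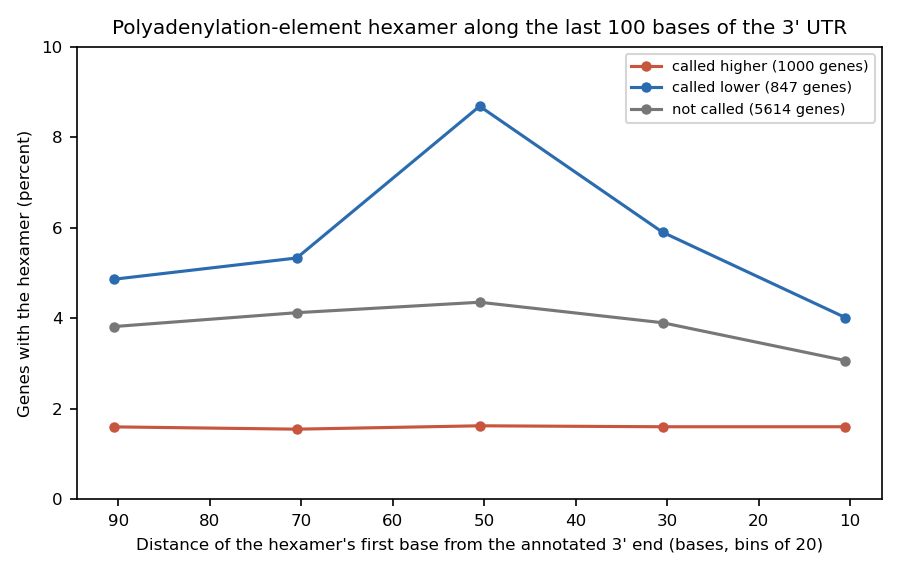
Percent of genes with the polyadenylation-element hexamer starting in each 20-base bin of the last 100 bases of the annotated 3′ UTR (x axis, bases from the 3′ end), over genes whose UTR reaches past the bin. Genes called lower in late 1-cell embryos (blue) peak at 8.69%, genes not called (grey) stay between 3.06% and 4.35%, and genes called higher (red) lie between 1.55% and 1.62%.

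Changes were more frequent in short transcripts. Of the 1934 genes in the shortest of 4 bins (up to 1697 bases) 23.6% were higher and 16.1% lower, and of 1934 genes in the longest (from 4209 bases) 5.33% and 8.53%. Transcript lengths were matched for 88.7% of the genes called higher and 96.5% of those called lower. FPKM divides by length, and its part in the result was not tested.

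The step was then read in *Tdp43* oKO, whose libraries are all separate from the control ones. Both readings came from the same fit with a shared variance per gene, on genes filtered by the control libraries alone. *Tardbp* was 3.87 and 4.84 FPKM in oKO MII and 0.903 and 0.989 FPKM in oKO 1C, below every control library. In oKO 672 genes (8.16%) were called higher and 973 (11.8%) lower. Of these, 550 were among the control genes called higher, 46.4% of that list and 81.8% of the oKO list. For lower genes 689 were shared, 75.2% of the control list and 70.8% of the oKO list. Of the control genes called higher 93.8%, and of those called lower 99.1%, had the same sign in oKO. The share with the same sign over all genes is not given here. The medians in control and oKO were 1.45 and 0.95 for the higher set and -1.40 and -1.33 for the lower set, where the sets were chosen on the control values. Across the 8234 genes the log2 fold changes correlated at r = 0.835 (Spearman 0.827), a description over genes, which are not independent replicates.

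The losses of oocyte messages were also seen in oKO. *Mos* went from 442 and 408 FPKM to 5.81 and 6.53 FPKM, *H1foo* from 4791 and 4924 to 80.98 and 109 FPKM, and *Bub1b* from 157 and 130 to 7.95 and 7.72 FPKM. *Vaultrc5* went from 4.99 and 4.88 to 470 and 529 FPKM. The hexamer shares had the same order, with TTTTAT in 22.9% of 886 genes called lower, 16.6% of 6030 not called and 10.6% of 545 called higher in oKO.

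The difference between genotypes was tested directly as the oKO change minus the control change. It was called higher in 44 genes (0.534%) and lower in 357 (4.34%). These counts moved with single libraries, to 15 and 142 without oKO 1C replicate 1 at the lowest, to 68 higher without control 1C replicate 2 and to 573 lower without control 1C replicate 1, and the list counts below rest on them. Of the 357 genes, 221 had been called higher in control. The control values enter the difference, so genes picked for a control rise were favoured to come out lower. *Timm17a* was 25.0 and 26.9 FPKM in oKO MII and 134 and 149 FPKM in oKO 1C, a smaller rise than in control (difference -1.72 ± 0.25 on the log2 scale, limma adjusted p = 2.8e-04). *Psmb7* was 26.4 and 30.5 against 73.8 and 70.4 FPKM (difference -2.41), and *Mrpl33* 19.2 and 15.3 against 41.5 and 48.2 FPKM (difference -2.34). In these genes the oKO values were above control in MII and below control in 1C. *Hist4h4* was 3.65 and 7.73 against 9.98 and 15.3 FPKM (difference -3.40), and *Spink2* 6.08 and 4.94 against 4.13 and 2.05 FPKM (difference -3.94). In the other direction, *Hormad1*, a meiotic chromosome axis gene, was 29.1 and 52.3 FPKM in control MII and 15.5 and 13.6 FPKM in control 1C, but 11.5 and 11.3 and then 44.8 and 42.6 FPKM in oKO (difference 3.21). *Dph6* was 52.7 and 63.5 and then 4.92 and 4.96 FPKM in control, and 38.3 and 45.6 and then 47.9 and 41.0 FPKM in oKO (difference 3.39). *Gm19757* was 25.99 and 28.2 and then 36.5 and 33.2 FPKM in control, and 67.1 and 52.99 and then 0.209 and 0.0821 FPKM in oKO (difference -6.08).

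By list, the difference was called lower in 22 of 86 cytoplasmic ribosomal protein genes, 17 of 86 respiratory chain genes, 10 of 73 mitochondrial ribosomal protein genes and 14 of 70 histone genes, and higher in 1, 0, 0 and 0. The oKO medians of these lists were -0.36, -0.28, -0.11 and -0.09, against 0.14, 0.23, 0.48 and 0.39 in control. Over all genes the difference was called lower in 4.34% and higher in 0.534%. In the oocyte growth list it was called in 4 of 56 genes, and in the deadenylation and decay list in none of 55. No list count was tested against the shares over all genes.

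**Figure D5:**
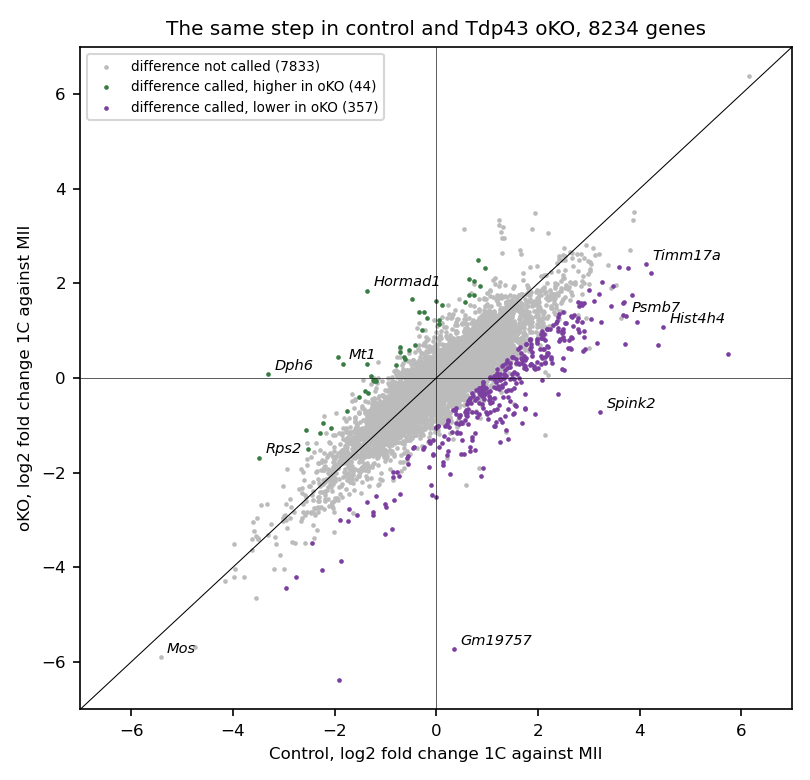
Log2 fold change from MII to late 1-cell of 8234 genes in control (x axis) and *Tdp43* oKO (y axis), each from 4 libraries; the diagonal marks equal change. Green and purple points are the 44 genes with a called difference higher in oKO and the 357 with one lower in oKO.

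The most abundant messages of the 2 stages were largely the same. Of the 10 highest genes in MII, *Oosp1* was the highest, at 8755 and 10103 FPKM, and fell to 4096 and 4044 FPKM in 1C (log2 fold change -1.21 ± 0.19, adjusted p = 2.9e-05). *Dppa3*, which protects the maternal genome from demethylation, was 5737 and 7598 FPKM in MII and 6263 and 6674 FPKM in 1C, and was the highest gene of the 1C libraries (log2 fold change -0.03 ± 0.14, adjusted p = 0.87). *Omt2b*, *Omt2a*, *Oosp3*, *Mphosph6* and *Cks2* were not called, with log2 fold changes between -0.79 and -0.32. *Gm15698* fell from 4632 and 4378 FPKM to 1695 and 2154 FPKM (log2 fold change -1.24 ± 0.13, adjusted p = 1.7e-07). *Skp1a*, a core subunit of SCF ubiquitin ligases, was 2407 and 2394 FPKM in MII and 2412 and 2471 FPKM in 1C. The calls of *Oosp1*, *Pttg1* and *Gm15698* were lost with quantile normalization. Under that setting *Dppa3* met the call rule as higher in 1C (log2 fold change 1.09, limma adjusted p = 4.1e-08).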

How the data were processed

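RNA-seq (smart-seq2, primed on poly(A)) was available for 24 libraries in 12 groups of 2. The deposited values are FPKM, computed by the authors with RefSeq genes on mm9; reads were trimmed with Trim Galore (version 0.6.6), and HISAT2 (version 2.2.1) and StringTie (version 2.1.2) are listed by the submitters' processing notes. Libraries are scaled to their mapped fragments, so levels are relative, and read depth is unknown. Of 24085 rows, 2 without values and 27 with names turned into dates were left out. The 16 Stacc-seq samples were not used here.

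Log2(FPKM + 1) was fitted with limma 3.58.1 (R 4.3.3) over all 24 libraries, 1 mean per group, with trend, robust moderation and 1 weight per stage (12 residual degrees of freedom), on genes with a mean of at least 1 FPKM over the 4 control libraries, and p-values were Benjamini-Hochberg adjusted over 8234 genes. A pseudocount of 1 understates changes of low genes. The fit was tested on simulated data. Lists of genes named by function were used, with the minor and major ZGA names from the study.

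Named genes are the 15 largest called changes each way with a mean of at least 5 FPKM and no overlap, up to 4 called members of each list with the largest change (or the 2 highest members), the 3 largest differences between genotypes each way, genes the study names, and the 10 highest genes of each stage; some genes that meet these rules are not reported here. Members, lists and tests were chosen with earlier results of these data known. Older symbols were matched to transcripts through RefSeq synonyms (GRCm38.p6, names only). Alternatives were other pseudocounts, filters and scalings, no weights, fewer libraries, a replicate block, each library left out and other fold thresholds. The motifs and the shortest 3′ UTR searched (50 bases) were chosen after the data were seen.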

Additional observations from a re-analysis of the deposited data

Results flagged for a closer look

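The test of the difference between genotypes (oKO change minus control change from MII to 1C, limma, 2-fold or more at an adjusted p up to 0.05) called the named genes given here. Values are differences on the log2 scale. The difference was higher in oKO for *Dph6* (3.39), *Hormad1* (3.21), *Mt1* (2.15) and *Rps2* (1.80).
Among the largest control increases it was lower in oKO for *Hist4h4* (-3.40), *Bfsp1* (-2.77), *Psmb7* (-2.41), *Aven* (-2.10), *Hist2h2aa1* (-2.10), *Gm4566* (-1.999), *Timm17a* (-1.72) and *Fam162a* (-1.45), and for the copy *Hist2h2aa2* (-2.08). Those genes were picked on the same control values that enter the difference, which favours a lower difference. In ribosomal, respiratory and translation genes it was lower for *Mrpl33* (-2.34), *Atp5j2* (-1.91), *Eef1d* (-1.83), *Mrto4* (-1.83), *Nol12* (-1.64), *Mrps18c* (-1.60), *Eef1a1* (-1.33) and *Mrpl51* (-1.11).
It was also lower for *Gm19757* (-6.08), *Spink2* (-3.94), *Prdx3* (-1.68), *Dnajc15* (-1.59), *Zar1l* (-1.22), *Tardbp* (-1.22) and *Sod1* (-1.05). It was lower as well for *Dcpp1* (-2.63) and *Dcpp2* (-2.70), members of the oviduct and uterine marker list. The summed markers of that list were 164 and 158 FPKM in oKO MII, against 46.8 and 43.9 FPKM in control MII. The oKO MII sums include *Dcpp1* itself (24.4 and 19.2 FPKM) and *Dcpp2* itself (66.0 and 70.1 FPKM). In control FGO *Dcpp1* was 15.9 and 12.4 FPKM and *Dcpp2* 20.1 and 21.3 FPKM. For *S100a8* (-5.25), *Saa3* (-3.66) and *S100a9* (-2.995) the signal lay mainly in 1C control replicate 1. The part of these marker levels in the differences was not tested.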

How the results depend on the processing

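With a pseudocount of 5, 531 genes were higher and 475 lower in control, 290 and 512 in oKO, and 10 and 176 in the difference. With a pseudocount of 0.1, 1011 were higher in oKO. A mean of at least 5 FPKM left 729 higher in control and 440 in oKO. At any fold, 2376 and 2214 were called in control and 1784 and 2241 in oKO, and at 4-fold or more 258 and 174 in control, 79 and 194 in oKO, and 5 and 58 in the difference. The difference gave 85 higher with quantile normalization and 19 higher and 210 lower without weights.
Leaving out 1 library at a time gave 1107 to 1367 higher and 817 to 1064 lower in control, 620 to 705 and 904 to 1004 in oKO, and 15 to 68 and 142 to 573 in the difference. The difference moved by over 1.5 times without oKO MII replicate 1 (20 and 205) or 2 (21 and 184), without oKO 1C replicate 1 (15 and 142) or 2 (18 and 194), in its lower count without control 1C replicate 1 (573), and in its higher count without control 1C replicate 2 (68).
Same-numbered control libraries deviated in opposite directions (correlation -0.32, and 0.0093 in oKO). This does not show whether the samples were paired, and nothing states that the numbers pair them. The replicate block gave 1191 higher and 920 lower in control and 24 and 207 in the difference. The crossed pairing, chosen after seeing the data, gave 1178 and 910 in control.
Of 156 named genes called, 120 were called under every setting run; 27 were lost with a pseudocount of 5 and 8 with quantile normalization. Genes uncalled in the main fit changed sign with quantile normalization (*Dppa3* 1.09, *Omt2b* 0.33, *Oosp3* 0.33, *Btg4* 0.25, *Cks2* 0.24, *Omt2a* 0.16), and with median-ratio scaling (*Dppa3* 0.015). With quantile normalization *Dppa3* met the call rule as higher in 1C. With 1 library left out *Dppa3* ranged from -0.23 to 0.17 and *Spam1* from -0.19 to 0.0055. The causes were not tested. Read depth is unknown, which limits statements on genes at low FPKM.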
